A study of Mus musculus with 6 samples.

Results

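The collagen genes of the hypoxic mouse kidney were taken as all protein-coding genes of the count table named Col, a number, the letter a and a number, leaving out Col8a1, Col8a2, Col27a1, Col24a1, Col6a4, Col6a5 and Col6a6. This gave 37 of the 54532 named genes, of which 9 encode chains of the fibrillar collagens, 6 chains of type IV collagen and 22 chains of other types. The 2 groups were wild type (WT) and Lpar3-/-, a genotype without the lysophosphatidic acid receptor 3 by its label, and kidneys were collected after both had spent 12 h in a chamber at normal pressure and 8% oxygen. Polyadenylated RNA was sequenced in 3 libraries per group, replicates 1 to 3. Every kidney was hypoxic, so the comparison is between genotypes, and kidneys of mice kept in room air were not analysed here. The sources used here do not give strain, sex, age, the deleted stretch of Lpar3 or whether each library came from its own animal. The p-values therefore measure the spread between these libraries, which may be technical.

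Collagens are trimers of chains that wind into a helix in the endoplasmic reticulum and are assembled outside the cell. Fibrillar collagens form the banded fibrils of connective tissue and are made in the kidney mainly by interstitial fibroblasts and pericytes. Type IV collagen forms the sheet-like network of basement membranes, and the chains of Col4a1 and Col4a2 are found in nearly all of them. The network of Col4a3, Col4a4 and Col4a5, in which inherited defects cause Alport syndrome, is the main one of the mature glomerular filter. There it is made by podocytes, and other sources of these chains in a whole kidney were not examined here. The other types bind to fibrils, form microfibrils, span the cell membrane or lie at the edge of basement membranes.

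Several collagen genes are neighbours, and the chains of the type IV network are encoded by pairs that are read away from each other. On chromosome 1 (GRCm38), Col4a4 (82448423 to 82586849, minus strand) and Col4a3 (82586921 to 82722059, plus strand) start 71 bases apart. On chromosome 8, Col4a1 (11198423 to 11312826, minus strand) and Col4a2 (11312805 to 11449287, plus strand) overlap by 22 bases at their starts. On chromosome X, Col4a6 and Col4a5 start 1308 bases apart. Outside type IV, Col3a1 and Col5a2 lie tail to tail with 24614 bases between them on chromosome 1, Col9a1 and Col19a1 lie tail to tail with 9205 bases between them on the same chromosome, and Col6a2 and Col6a1 lie on the same strand with 85161 bases between them on chromosome 10.

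Promoter sequence is shown for the spacer shared by the Col4a4 and Col4a3 starts and for 3 genes chosen for their low unadjusted p-values below, Col3a1, Col5a3 and Col6a1. The sequences come from the RefSeq promoter table for GRCm38.p6, which holds 28 of the 37 genes. They run 5′ to 3′ on the strand of the first-named gene, without bases that belong to an annotated exon. Capitals mark matches on either strand to short motifs. The motif of the so-called CCAAT box is spelled as its name says, that of the TATA box is TATAAA, and that of the GC box is GGGCGG. The core of a hypoxia response element was searched as ACGTG and, as a second spelling, as GCGTG. The motifs do not overlap in the stretches shown.
Col4a4 to Col4a3 spacer, chr1:82586850-82586920, minus strand: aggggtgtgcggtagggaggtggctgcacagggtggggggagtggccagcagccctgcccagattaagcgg
Col3a1, chr1:45311288-45311537, plus strand: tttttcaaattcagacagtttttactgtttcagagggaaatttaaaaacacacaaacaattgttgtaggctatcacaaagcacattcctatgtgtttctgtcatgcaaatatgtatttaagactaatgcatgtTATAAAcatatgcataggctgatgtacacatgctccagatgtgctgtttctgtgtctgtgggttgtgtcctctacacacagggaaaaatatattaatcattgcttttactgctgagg
Col5a3, chr9:20815068-20815317, minus strand: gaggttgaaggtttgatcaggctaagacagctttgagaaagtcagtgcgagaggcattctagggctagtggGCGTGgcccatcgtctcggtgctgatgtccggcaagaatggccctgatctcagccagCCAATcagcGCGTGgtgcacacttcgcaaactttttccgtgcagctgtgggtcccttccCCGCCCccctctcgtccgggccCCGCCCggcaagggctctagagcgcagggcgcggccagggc
Col6a1, chr10:76726169-76726294, minus strand: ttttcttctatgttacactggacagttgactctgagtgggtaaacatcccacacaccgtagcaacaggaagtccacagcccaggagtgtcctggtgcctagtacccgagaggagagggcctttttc

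The spacer and the Col6a1 stretch held none of these letters, the Col3a1 stretch held 1 match, to TATAAA, and the Col5a3 stretch held CCAAT, GC box and GCGTG matches. Over full windows of 300 bases, from 250 before to 50 after the start, GGGCGG was found in 17 of 31 collagen windows (some genes have several starts), against 35.7% of all 32851 windows of the table. CCAAT was in 12 of the 31 windows (37.4% of all windows), TATAAA in 5 (13.6%), ACGTG in 4 (19.6%) and GCGTG in 9 (32.4%). A match to ACGTG or GCGTG is a description of letters and says nothing about binding in these kidneys.

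The libraries held 16011804 to 17991881 counts in all, and 0.133% to 0.174% of the counts on named genes fell on the 37 collagen genes. Lpar3 had 645, 634 and 577 counts in WT replicates 1 to 3 and 672, 592 and 580 in the libraries labelled Lpar3-/- (log2 fold change 0.0033, SE 0.081, edgeR adjusted p = 0.997), so the counts do not separate the labels. Directions below are therefore those of the libraries labelled Lpar3-/- against the libraries labelled WT. WT replicate 2 stood apart in several marker lists. It held the highest summed level, in CPM (counts scaled to a common library size), of the 10 macrophage markers (515 CPM against 220 to 268 CPM in the other 5 libraries), the 8 tubular injury markers (1209 CPM against 651 to 737 CPM) and the 12 fibroblast and pericyte markers (570.5 CPM against 405 to 455 CPM). In no marker list was a gene at 0 in every library. The kidney identity markers (Umod, Slc34a1, Lrp2, Aqp2, Slc12a1 and Slc12a3) summed to 8313 to 8628 CPM in WT and 8952 to 9378 CPM in the libraries labelled Lpar3-/-.

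Type IV collagen made up most of the message of the 37 collagen genes, a sum without the collagen genes left out at the start. On the scale of deposited FPKM (fragments scaled to gene length and library depth), which corrects for gene length, Col4a1, Col4a2, Col18a1, Col4a4 and Col4a3 were the 5 most abundant of the 37 genes. Among the 15225 genes that passed the filter on low counts they ranked 1183, 1463, 1833, 2129 and 2434 by mean FPKM. The 6 type IV genes together took 65.1% to 71.5% of the summed FPKM of the 37 genes in WT. They took 71.6% to 71.8% in the libraries labelled Lpar3-/-, and the lowest of all these values was that of WT replicate 2. The 9 fibrillar genes took 5.28%, 8.51% and 5.83% in WT replicates 1 to 3 and 4.67% to 5.58% in the other group. Col18a1 alone, the source of the angiogenesis inhibitor endostatin, took 14.4% to 16.4% in WT and 15.1% to 15.6% in the libraries labelled Lpar3-/-.

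**Figure D1:**
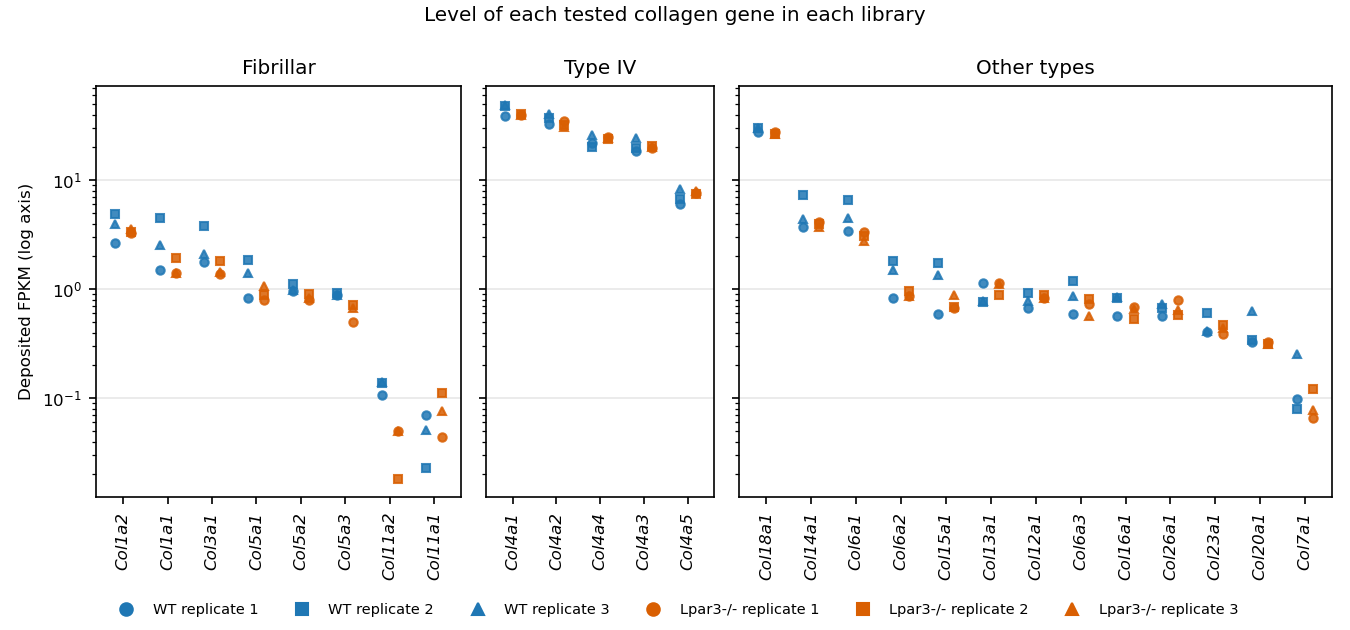
Deposited FPKM (log axis) of the 26 tested collagen genes in each of the 6 libraries, with 1 point per library, WT in blue and Lpar3-/- in orange, by class and sorted by mean. The type IV genes and Col18a1 lie above all fibrillar genes, and WT replicate 2 (blue squares) is the highest point for 14 of the 26 genes.

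Of the 37 genes, 26 passed the filter and were tested: 8 fibrillar, 5 type IV and 13 other. Of these 26 genes, 0 differed between the groups at an adjusted p under 0.05 by edgeR's quasi-likelihood test, where 0.374% of all genes tested did (57 of 15225). The collagen genes left out at the start are not covered by this count. For the same 26 genes DESeq2 also called 0 (1.1% of the 15793 genes to which it gave an adjusted p) and limma-voom 0 (0.361% of 15225). At an unadjusted p under 0.05 there were 8 of the 26 by edgeR (9.18% of all genes tested) and 5 by limma-voom (8.85% of 15225). DESeq2, which did not filter beforehand, gave 8 of all 37 genes, each of them among the 26, beside 4.47% of 26641 genes. All 8 edgeR genes were lower in the libraries labelled Lpar3-/- (5.21% of all genes tested were lower and 3.97% higher at that p). They were the fibrillar genes Col1a1, Col3a1, Col5a1, Col5a3 and Col11a2, the type VI genes Col6a1 and Col6a2, and Col15a1. A negative log2 fold change, lower in the libraries labelled Lpar3-/-, was found for 20 of the 26 genes (51.1% of all genes tested).

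The classes differed in the size of these values. The median log2 fold change was -0.54 over the 8 fibrillar genes tested, -0.049 over the 5 type IV genes and -0.33 over the 13 others, beside -0.0036 over all genes tested. The difference between classes was not tested. In 4 genes, Col5a2, Col5a3, Col11a2 and Col6a1, every library labelled Lpar3-/- was below every WT library (7.12% of all genes tested), and in 0 every such library was above (6.58%). Col11a2 reached the filter's level only in WT libraries, so its place among the 4 was favoured in advance and supports nothing.

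WT replicate 2 carried much of the difference. It held the highest CPM of the 6 libraries for 14 of the 26 genes, 6 of 8 fibrillar, 0 of 5 type IV and 8 of 13 other (21.9% of all genes tested). Without it, 0 of the 26 genes were called (0.462% of the 15569 genes then tested), and 18 of 26 had a negative log2 fold change. An unadjusted p under 0.05 was left for 4, namely Col3a1, Col5a3, Col11a2 and Col6a1 (8.88% of genes). Of the 4, Col11a2 reached the filter's level in none of the libraries labelled Lpar3-/-. The medians were then -0.31 for fibrillar, -0.094 for type IV and -0.098 for other genes. WT replicate 1 acted the other way: it was the lowest WT library for 7 of the 8 genes. Without it, 4 collagen genes were called as lower, Col1a1 (log2 fold change -1.16, edgeR adjusted p = 0.0336), Col6a1 (-0.87, adjusted p = 0.0269), Col6a2 (-0.88, adjusted p = 0.0181) and Col15a1 (-1.05, adjusted p = 0.0336), where 0.955% of 15595 genes were called, and 14 had an unadjusted p under 0.05 (11.6%). The count also rested on the filter, since with no filter 7 were called, Col1a1, Col3a1, Col5a1, Col14a1, Col6a1, Col6a2 and Col15a1 (1.95% of 26645 genes).

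**Figure D2:**
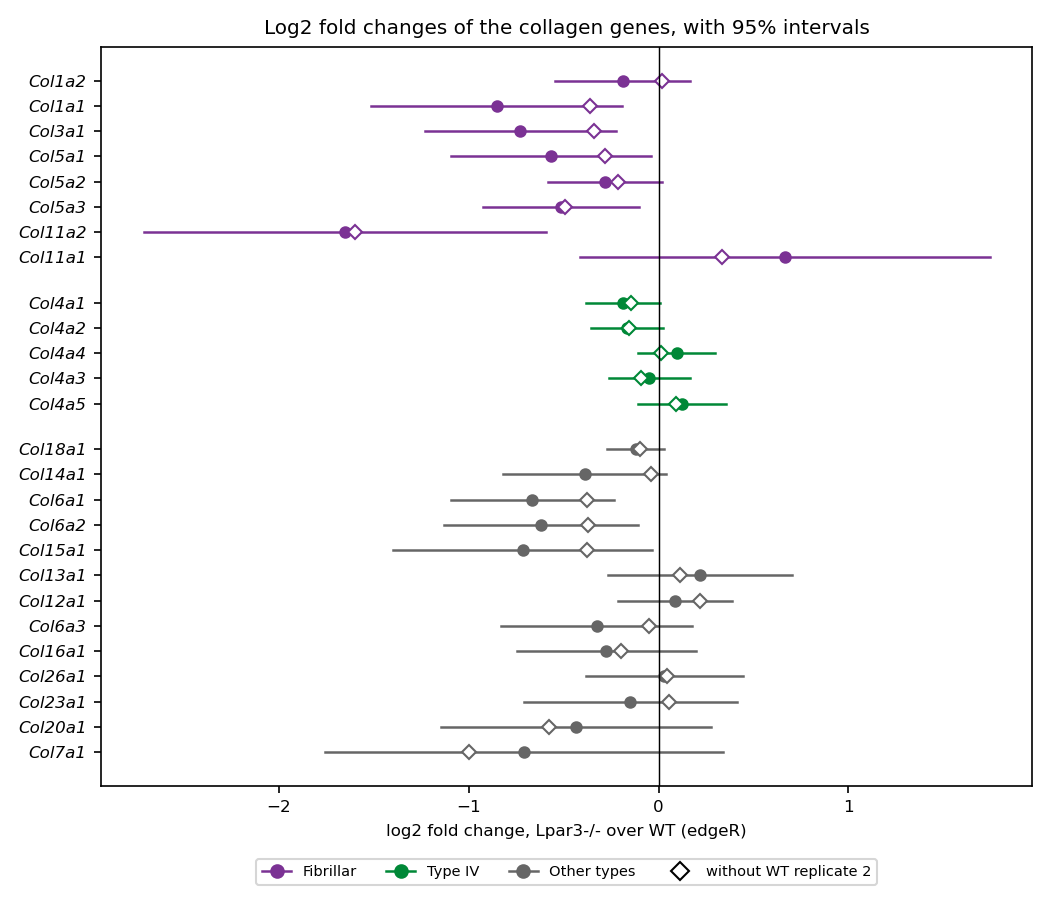
Log2 fold change of each tested collagen gene, libraries labelled Lpar3-/- over WT, by edgeR, with 95% intervals (filled circles, 3 libraries per group), and the value without WT replicate 2 (open diamonds, drawn without intervals). The 8 genes with an unadjusted p under 0.05 have intervals wholly below 0, and for most of them the diamond lies nearer to 0.

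The levels also spread more among the WT libraries. The SD of the CPM was larger in WT for 23 of the 26 genes (6 of 8 fibrillar, 5 of 5 type IV and 12 of 13 other), where this held for 61.1% of all genes tested. Summed over the 9 fibrillar genes, the level ran from 85.7 to 163 CPM in WT and from 83.2 to 95.3 CPM in the libraries labelled Lpar3-/-. For the 22 other genes it ran from 285 to 372 CPM and from 279.8 to 295 CPM. In both classes WT replicate 2 was highest, and WT replicate 1 lay inside the other group's range.

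**Figure D3:**
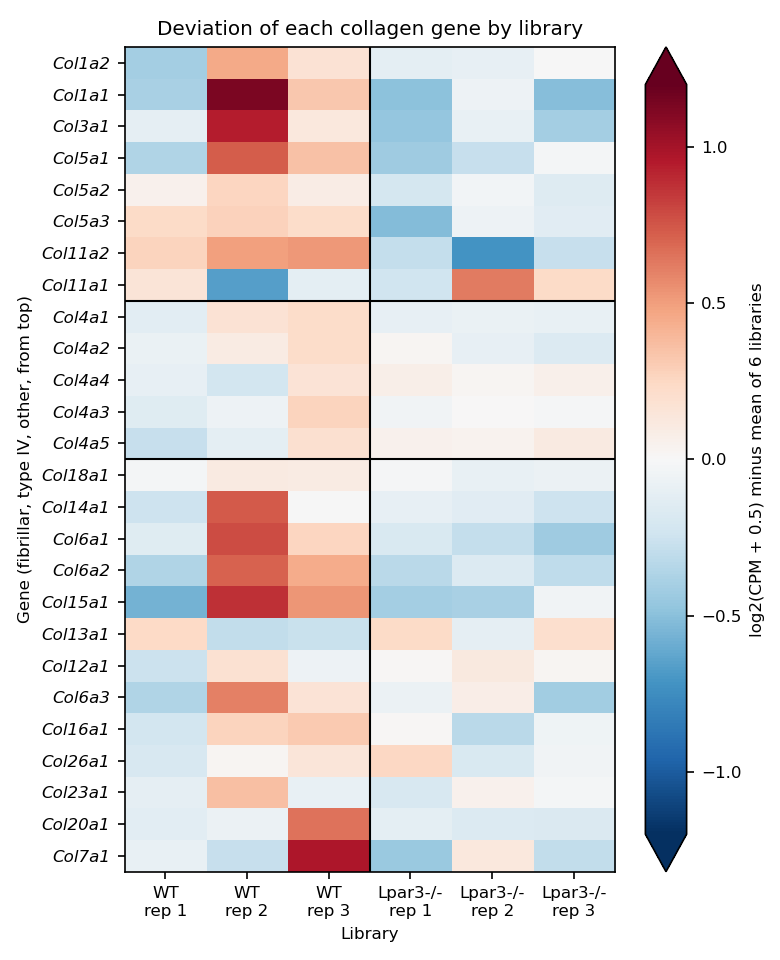
Deviation of log2(CPM + 0.5) from the mean of the 6 libraries, for each tested collagen gene (rows, by class from fibrillar at the top to other types at the bottom) and library (columns), red above and blue below the mean. Most fibrillar genes, the 3 type VI genes, Col14a1 and Col15a1 are reddest in WT replicate 2, while the 5 type IV genes are highest in WT replicate 3.

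Among the 9 fibrillar genes described here, the chains of type I and type III collagen, the main fibrils of interstitial matrix, were the most abundant. The collagen genes left out at the start are not part of this ranking. Col1a1 (chromosome 11, 94936224 to 94953042, plus strand), the alpha-1 chain of type I, had 1.52, 4.51 and 2.54 FPKM in WT replicates 1 to 3 and 1.42, 1.94 and 1.40 FPKM in the libraries labelled Lpar3-/-. The groups overlapped, with WT replicate 1 among the other group's libraries and WT replicate 2 far above all others. Its log2 fold change was -0.85 (SE 0.30, 95% interval -1.52 to -0.19, edgeR adjusted p = 0.371), and -0.36 without WT replicate 2. Col1a2 (chromosome 6), the partner chain, had 2.68, 4.93 and 4.0 FPKM in WT and 3.30, 3.33 and 3.57 FPKM in the other group. WT replicate 1 was its lowest library and WT replicate 2 its highest, so the groups overlapped. The log2 fold change of Col1a2 was -0.19 (SE 0.16, edgeR adjusted p = 0.810), and 0.020 without WT replicate 2.

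Col3a1 (chromosome 1, 45311538 to 45349706, plus strand), the chain of type III collagen, whose promoter is shown above, had 1.79, 3.78 and 2.11 FPKM in WT and 1.39, 1.82 and 1.44 FPKM in the libraries labelled Lpar3-/-. Only WT replicate 1 and Lpar3-/- replicate 2 made the groups overlap. Its log2 fold change was -0.73 (SE 0.23, 95% interval -1.23 to -0.23, edgeR adjusted p = 0.303), and -0.34 without WT replicate 2. Of the exons of the 37 genes, those of 11 overlap an exon of another gene in GENCODE M21, in Col3a1 a microRNA gene on the same strand, and the sources used here do not give the strand setting of the counting.

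Type V and type XI chains are built into other fibrils and help to set their diameter. Col5a3 (chromosome 9, 20770050 to 20815067, minus strand), a minor type V chain, had 0.887, 0.924 and 0.877 FPKM in WT and 0.50, 0.717 and 0.673 FPKM in the libraries labelled Lpar3-/-. The WT libraries lay close together and all above the other group. The log2 fold change of Col5a3 was -0.51 (SE 0.19, 95% interval -0.93 to -0.10, edgeR adjusted p = 0.393), and -0.49 without WT replicate 2. Col11a2 (chromosome 17, 34039437 to 34066685, plus strand), a type XI chain best known from cartilage, is a gene of few reads, with 13, 16 and 16 counts in WT and 6, 2 and 6 in the other group. It reached the filter's level in 3 WT libraries and 0 of the libraries labelled Lpar3-/-, so it was tested only because of the group in which it was higher, and its log2 fold change of -1.65 (SE 0.48, edgeR adjusted p = 0.260) supports nothing about the class. Without it, 7 of 25 tested genes had an unadjusted p under 0.05 and the median of the other 7 fibrillar genes was -0.51.

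The remaining fibrillar genes were Col5a1, Col5a2, Col11a1 and Col2a1. Col5a1 had 127, 267 and 200 counts in WT and 120, 121 and 159 in the libraries labelled Lpar3-/-, with a log2 fold change of -0.57 (SE 0.24, edgeR adjusted p = 0.505), and -0.28 without WT replicate 2. Col5a2 had 165, 183 and 158 counts against 135, 139 and 138, groups that did not overlap, with a log2 fold change of -0.28 (SE 0.14, edgeR adjusted p = 0.579). Col11a1, with 5 to 16 counts in WT and 10 to 23 in the other group, was the only fibrillar gene tested with a positive log2 fold change, 0.66 with an SE of 0.49, and ran from 0.31 without Lpar3-/- replicate 2 to 1.04 without WT replicate 1. Col2a1, the main collagen of cartilage, had at most 2 counts in a library.

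Marker lists of the cells a kidney sample can hold were read from the same fit, where 51.1% of all genes tested had a negative log2 fold change and 9.18% an unadjusted p under 0.05. Of the fibroblast and pericyte markers, 11 of 12 were tested, 9 had a negative log2 fold change, and 5 had an unadjusted p under 0.05 (4 lower, 1 higher). Their median was -0.35, and -0.016 without WT replicate 2. All 9 macrophage markers tested had a negative log2 fold change (median -0.56, and -0.18 without WT replicate 2), as had the 8 tubular injury markers (median -0.70, and -0.21). All 8 adipocyte markers had a negative log2 fold change and 7 an unadjusted p under 0.05, with a median of -1.50, and -1.53 without WT replicate 2. Leaving out Pck1, which proximal tubules also express, they summed to 344, 263 and 183 CPM in WT replicates 1 to 3. The sum was 124 to 197 CPM in the libraries labelled Lpar3-/-. The other lists had medians nearer to 0, with -0.24 over 7 smooth muscle and myofibroblast markers, -0.17 over 4 mesangial, -0.0055 over 9 podocyte, -0.025 over 9 endothelial and -0.049 over 5 urothelial markers, and 0.16 over 4 parietal epithelial markers, all positive. The part of these markers in the collagen values was not tested. In RNA of a whole kidney, fewer cells of a type and less RNA per cell cannot be told apart.

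The type IV genes were all measured at high depth, apart from Col4a6, and none of the 5 tested had an unadjusted p under 0.05. Col4a1 had 39.0, 48.3 and 49.4 FPKM in WT and 40.0, 40.4 and 39.9 FPKM in the libraries labelled Lpar3-/-, with a log2 fold change of -0.19 (SE 0.090, 95% interval -0.38 to 0.0078, edgeR adjusted p = 0.566). Its partner Col4a2 had 32.9, 37.2 and 40.2 FPKM against 35.3, 32.4 and 31.0 FPKM, with a log2 fold change of -0.17 (SE 0.086, 95% interval -0.35 to 0.023, edgeR adjusted p = 0.617). In both genes WT replicate 1 lay within or below the range of the other group. Counts near the shared start of this pair could belong to either gene, since their exons overlap.

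The chains of the glomerular network had values on both sides of 0. Col4a4 had 22.0, 20.2 and 26.2 FPKM in WT and 24.8, 23.9 and 24.6 FPKM in the libraries labelled Lpar3-/- (log2 fold change 0.096, SE 0.093, 95% interval -0.11 to 0.30, edgeR adjusted p = 0.834). Col4a5 had 6.03, 6.77 and 8.38 FPKM against 7.66, 7.55 and 7.90 FPKM (log2 fold change 0.12, SE 0.11, 95% interval -0.11 to 0.36, edgeR adjusted p = 0.813). Col4a3, which shares the spacer shown above with Col4a4, had 3299 to 4096 counts in WT and 3276 to 3528 in the other group, with a log2 fold change of -0.049 (95% interval -0.26 to 0.16). For all 5 genes the groups overlapped and WT replicate 3 was the highest library. Without that library, the log2 fold changes of Col4a1, Col4a2, Col4a4, Col4a3 and Col4a5 were -0.12, -0.090, 0.22, 0.089 and 0.27, and without WT replicate 1 those of Col4a1 and Col4a5 were -0.29 and 0.022. Col4a6, the chain that pairs with Col4a5 outside the glomerular filter, had 3 to 6 counts in WT and 4 to 13 in the other group and was not tested. The 9 podocyte markers summed to 591, 650 and 547 CPM in WT replicates 1 to 3 and 583 to 612 CPM in the libraries labelled Lpar3-/-. Their relation to these chains was not tested.

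Ratios between chains were compared within each library, where the depth of the library cancels. The Col4a3, Col4a4 and Col4a5 chains made up 39.3%, 35.3% and 39.8% of the summed type IV FPKM in WT replicates 1 to 3 and 41.0%, 41.7% and 42.6% in the libraries labelled Lpar3-/-, groups that did not overlap. This share was noticed in the data and has no test. The 10 ratios below and in the plot of chain ratios were compared by an exact permutation test, two-sided, for which 3 libraries against 3 cannot give a p below 0.1. The ratio of Col4a3 to Col4a5 was 3.07, 2.90 and 2.93 in WT and 2.60, 2.72 and 2.57 in the other group, every library lower (difference of log2 ratios -0.17, exact p = 0.1, adjusted over the 10 ratios 0.333). The ratio of Col4a3 to Col4a1 was 0.475, 0.407 and 0.497 in WT and 0.498, 0.510 and 0.508 in the other group, every library higher (difference 0.14, exact p = 0.1, adjusted 0.333), with a difference of 0.056 without WT replicate 2.

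In type VI collagen, the ratio of Col6a1 to Col6a3 was 5.79, 5.55 and 5.26 in WT and 4.55, 3.78 and 4.93 in the libraries labelled Lpar3-/-, every library lower (difference of log2 ratios -0.33, exact p = 0.1, adjusted 0.333). For the other 7 ratios the groups overlapped. Among them, Col1a1 to Col1a2 differed by -0.58 (exact p = 0.2, adjusted 0.4; -0.38 without WT replicate 2) and Col4a1 to Col4a2, the chains of 1 trimer, by -0.018 (exact p = 0.9).

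**Figure D4:**
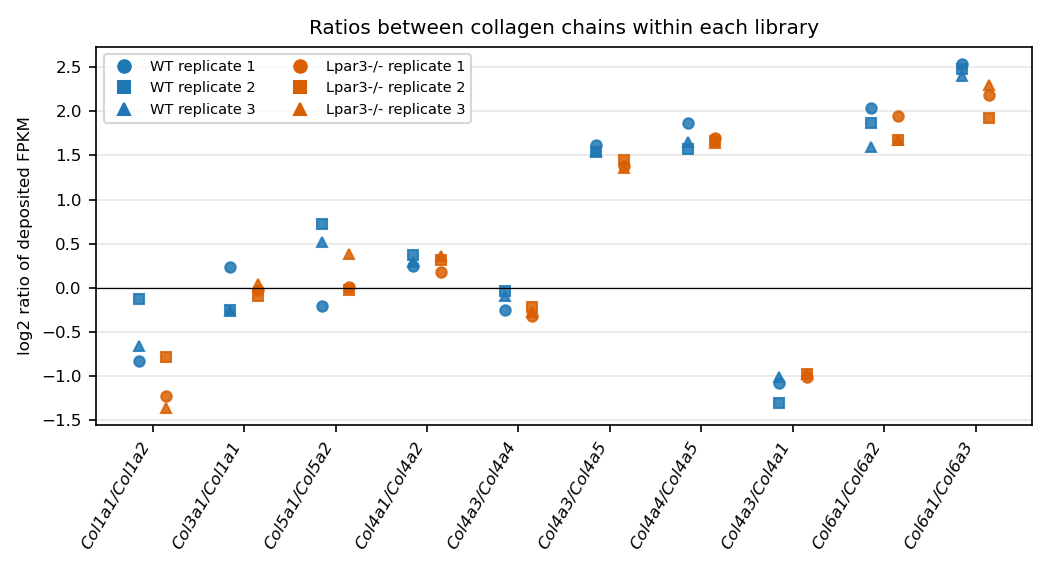
Log2 ratio of deposited FPKM between 2 collagen chains in each library, with 1 point per library, for the 10 ratios tested, WT in blue and Lpar3-/- in orange. The groups do not overlap for Col4a3/Col4a5, Col4a3/Col4a1 and Col6a1/Col6a3, and the WT libraries spread most for Col5a1/Col5a2.

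Of the other types, the type VI chains, which form beaded microfibrils around cells, had a median of -0.62 over 3 genes. Col6a1 (chromosome 10, 76708792 to 76726168, minus strand) had 3.41, 6.63 and 4.54 FPKM in WT and 3.34, 3.09 and 2.79 FPKM in the libraries labelled Lpar3-/-. Its groups did not overlap, although WT replicate 1 was only just above the other group. The log2 fold change of Col6a1 was -0.66 (SE 0.20, 95% interval -1.09 to -0.23, edgeR adjusted p = 0.268), and -0.38 without WT replicate 2. Col6a2 had 0.833, 1.82 and 1.5 FPKM in WT and 0.865, 0.970 and 0.874 FPKM in the other group, with WT replicate 1 the lowest of all 6. Its log2 fold change was -0.62 (SE 0.23, edgeR adjusted p = 0.413), and -0.37 without WT replicate 2. Col6a3, with 126 to 243 counts in WT and 118 to 156 in the other group, had a value of -0.33 on the log2 scale (SE 0.23), and -0.048 without WT replicate 2.

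The multiplexins are collagens with broken helices that lie at basement membranes. Col15a1 (chromosome 4, 47208161 to 47313167, plus strand) had 0.599, 1.76 and 1.36 FPKM in WT and 0.679, 0.690 and 0.893 FPKM in the libraries labelled Lpar3-/-. WT replicate 1 was the lowest of all 6 libraries and the other WT libraries were the 2 highest. Its log2 fold change was -0.72 (SE 0.31, 95% interval -1.40 to -0.033, edgeR adjusted p = 0.519), and -0.38 without WT replicate 2. Col18a1 (chromosome 10, 77052178 to 77166548, minus strand), at a far higher level, had 27.5, 30.2 and 29.9 FPKM in WT and 27.8, 26.4 and 26.6 FPKM in the other group. Its log2 fold change was -0.12 with a 95% interval of -0.27 to 0.030 (SE 0.069, edgeR adjusted p = 0.664).

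Fibril-associated collagens coat the surface of fibrils. Col14a1 (chromosome 15), the most abundant of them, had 3.69, 7.39 and 4.37 FPKM in WT and 4.12, 4.01 and 3.69 FPKM in the libraries labelled Lpar3-/-. WT replicate 2 alone stood above the rest, and the log2 fold change of -0.39 (SE 0.20, edgeR adjusted p = 0.598) was -0.039 without it. Col12a1, with 183 to 241 counts in WT and 215 to 221 in the other group, had a log2 fold change of 0.088 (SE 0.14). Col16a1 had 57 to 97 counts over all libraries, with a log2 fold change of -0.28 (SE 0.22) that was -0.17 without WT replicate 3, -0.17 without Lpar3-/- replicate 2 and -0.44 without WT replicate 1. Col20a1 had 54 counts in WT replicate 3 and 26 to 30 in the other 5 libraries, and its log2 fold change of -0.43 (SE 0.33) was -0.063 without that library.

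The last genes tested were those of the membrane-spanning collagens Col13a1 and Col23a1, of Col26a1, and of Col7a1, the chain of the anchoring fibrils of skin. Their log2 fold changes were 0.22, -0.15, 0.029 and -0.71, with SEs of 0.22, 0.26, 0.19 and 0.48. Col7a1 had 44 counts in WT replicate 3 and 12 to 20 in the other 5 libraries, and its value was -0.014 without that library and -0.998 without WT replicate 2. That of Col13a1 ran from 0.11 without WT replicate 2 to 0.44 without WT replicate 1. For all 4 genes the groups overlapped.

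The 11 genes not tested were at or near the limit of detection at this depth, and no difference could be read from them. They were Col2a1, Col4a6, Col28a1, Col19a1, Col17a1, Col9a2, Col25a1, Col9a3, Col10a1, Col9a1 and Col22a1, and their highest count in any library was 14, for Col19a1 in WT replicate 1. Col9a1, Col10a1 and Col22a1 each had 1 count over all 6 libraries. Col17a1, a collagen of the hemidesmosomes that fix epithelia to their basement membrane, had 0, 13 and 4 counts in WT and 0 in each library labelled Lpar3-/-.

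Among the genes for collagen synthesis and processing, 29 of 32 were tested, 0 were called (0.374% of all genes tested) and 24 had a negative log2 fold change (51.1%), with a median of -0.10. Without WT replicate 2, 20 of the 29 were negative. An unadjusted p under 0.05 was found for 5, all lower (5.21% of all genes tested). P4ha1, a catalytic subunit of the prolyl 4-hydroxylase that stabilises the helix, had 55.7, 53.5 and 59.2 CPM in WT and 48.2, 39.0 and 40.6 CPM in the libraries labelled Lpar3-/-, groups that did not overlap (log2 fold change -0.40, SE 0.090, edgeR adjusted p = 0.10). Lox and Loxl1, which cross-link collagen and elastin, had log2 fold changes of -0.50 (SE 0.15) and -0.70 (SE 0.20), again without overlap of the groups. Plod1, a lysyl hydroxylase, had a log2 fold change of -0.24 (SE 0.080, groups not overlapping). The fifth was Adamts2, a procollagen N-proteinase (-0.45, SE 0.18, groups overlapping), which was named after its value was seen. Without WT replicate 2, these 5 values lay between -0.45 for Lox and -0.27 for Plod1. Of the 29 genes, 6 had every library labelled Lpar3-/- below every WT library (7.12% of all genes tested). For 1 gene, Colgalt2, every such library was above (6.58%).

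Laminins, nidogens and the other partners of type IV collagen in basement membranes, 22 genes and all tested, had a median log2 fold change of -0.039 with 13 negative (51.1% of all genes tested). Without WT replicate 2 the median was -0.090 with 17 negative. Npnt, an integrin ligand of kidney basement membranes, was the 1 gene with an unadjusted p under 0.05 (9.18% of all genes tested), at 155 to 172 CPM in WT and 172 to 229.7 CPM in the libraries labelled Lpar3-/- (log2 fold change 0.24, SE 0.10, edgeR adjusted p = 0.516). The next lowest p-values belonged to the nidogen Nid1 (-0.29, SE 0.14), Tinagl1 (0.11, SE 0.078) and the laminin chain Lama2 (-0.21, SE 0.15), with groups that overlapped. Without WT replicate 2 these values were -0.11, 0.038 and -0.094.

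Of the collagen receptors and matrix partners, 20 of 22 were tested, 0 were called (0.374% of all genes tested) and 17 had a negative log2 fold change (51.1%), with a median of -0.27. Without WT replicate 2 the median was -0.094 and 15 were negative. The 3 genes with an unadjusted p under 0.05, all lower (5.21% of all genes tested), were Ddr1, a receptor tyrosine kinase for collagen, Thbs2 and Efemp2. Ddr1 had 158, 179 and 167 CPM in WT and 149, 143 and 144 CPM in the libraries labelled Lpar3-/-, groups that did not overlap (log2 fold change -0.21, SE 0.069, edgeR adjusted p = 0.332). It was the 1 gene of the 20 with every such library below every WT library (7.12% of all genes tested). Thbs2 (-0.69, SE 0.26), Efemp2 (-0.41, SE 0.17) and Sparc (-0.23, SE 0.11), a collagen-binding matrix protein, had groups that overlapped, and the value of Sparc was -0.074 without WT replicate 2.

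Of 17 genes of the TGF-beta and PDGF pathways, which regulate matrix genes, 0 were called (0.374% of all genes tested) and 13 had a negative log2 fold change (51.1%), with a median of -0.093. Without WT replicate 2 the median was -0.031 and 10 were negative.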

How the data were processed

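The authors deposited unnormalized read counts per gene. The submitters' processing notes name the build GRCm38 and the tools featureCounts 1.5.0-p3, HISAT2 2.0.5 and DESeq2 1.20.0. The deposited FPKM values were normalized by the authors for length and depth. Strand setting, annotation release and the handling of multi-mapping reads were not given in the sources used here. Rows without a gene name (377, 0.259% to 0.362% of counts) were left out. Counts were tested with edgeR 4.0.16 (R 4.3.3; quasi-likelihood F-test, default filterByExpr, TMM, no covariate) and Benjamini-Hochberg adjustment over 15225 genes; an adjusted p under 0.05 is a call. Totals over all rows were 16011804 to 17991881. CPM uses the TMM-scaled totals of the tested genes, 15878744 to 17717542. The common coefficient of variation was 10.5%. Chain ratios used FPKM and genes with at least 10 counts in every library.

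Alternatives were DESeq2 1.42.0, limma-voom (limma 3.58.1), other normalizations and filters, limma on log2(FPKM + 1) and log2(FPKM + 0.1) (mean FPKM of 0.1 or more), replicate number as a block, and each library left out. On simulated counts for 15225 genes, edgeR recovered 53.7% of genes changed 1.5-fold, 80.6% at 2-fold and 98.5% at 4-fold, with 10 of 165 calls false. The changed genes were drawn at random from all genes tested, with the same spread in both groups. These rates are therefore not those of the collagen genes. The genes, classes, partner lists and marker lists were chosen with earlier results of these data known. Per class, values by library are given for the 3 genes with the highest mean FPKM and the 4 with the lowest p, and of each list of synthesis, basement membrane and receptor genes the 4 with the lowest p were named; others are given by range and count. Ctgf stands in the table for Ccn2. Counting without Col11a2 and summing adipocyte markers without Pck1 were chosen after seeing the data. The value of 1 gene of the regulator list is not reported here.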

Additional observations from a re-analysis of the deposited data

How the results depend on the processing

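Of all genes tested, DESeq2 called 173, edgeR with no filter 520, limma 9 on log2(FPKM + 1), 13 on log2(FPKM + 0.1) and 4 on log2(FPKM + 1) with no filter, against 57 by edgeR; leaving out 1 library gave 12 to 149. Collagen genes called numbered 7 of 37 with no filter and 0 to 4 of 26 with 1 library left out, and 0 under the other alternatives. The 8 of 26 collagen genes with an unadjusted p under 0.05 became 5 of 26 by limma-voom (8.85% of all genes). They became 14 of 37 with no filter, 2 of 24 on log2(FPKM + 1), 2 of 24 on log2(FPKM + 0.1) and 3 of 37 on log2(FPKM + 1) with no filter. They were 3 to 14 of 26 with 1 library left out. The 3 were without Lpar3-/- replicate 1, and the 14 without WT replicate 1 (11.6% of all genes then tested). The genes tested differ between these settings, so the counts are not like for like. The share over all genes is not given for each setting, so counts without it do not show whether the collagen genes stood above that share. The fibrillar median was -0.25 on log2(FPKM + 1), -0.13 with no filter on that scale, which understates low genes, and -0.67 to -0.31 with 1 library left out. The median of the other types was -0.11, -0.058, and -0.55 to -0.098 in the same order. The type IV median ran from -0.13 to 0.089 with 1 library left out, positive without WT replicate 3, and was 0.024 with no filter and 0.028 by DESeq2, where Col4a6 enters. Counting the multiplexins with type IV gave -0.12. Single genes changed sign near 0 with 1 library left out: Col12a1 (-0.018 without WT replicate 1, highest 0.22), Col26a1 (-0.064 without WT replicate 1, -0.11 without Lpar3-/- replicate 1, highest 0.13), Col1a2 (0.020 without WT replicate 2, lowest -0.40), Col23a1 (0.055 without WT replicate 2, lowest -0.25) and Col4a3 (0.089 without WT replicate 3, lowest -0.13). So did 4 chain ratios with 1 library left out: Col3a1 to Col1a1 ran from -0.018 to 0.24 (-0.012 without WT replicate 2), Col4a1 to Col4a2 from -0.056 to 0.036 (0.017 without WT replicate 2), Col4a4 to Col4a5 from -0.090 to 0.053 and Col6a1 to Col6a2 from -0.18 to 0.033. The cause was not tested.

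Same-numbered libraries of the groups had correlations of 0.0026, 0.0051 and 0.051 across genes, beside -0.048 to 0.040 for differently numbered ones. From 3 libraries per group, such values cannot show whether the numbers pair the samples. With the replicate number as a block, 0 of the 26 collagen genes tested were called, where 80 of all 15225 genes tested were. Of the 26, 8 had an unadjusted p under 0.05 and 20 had a negative log2 fold change. The shares over all genes for these last counts are not given under this model. The 11 genes not tested had too few counts for the filter, and whether depth or lack of expression was the reason was not tested.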
